A study of Homo sapiens with 16 samples.

Results

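The genes described here are 10 effectors of the interferon response, taken by name from the 36337 gene symbols on the array: IFIT1, IFIT2, IFIT3 and IFIT5, IFI44 and IFI44L, IFI6, IFI27, ISG15 and ISG20. They were measured in RPMI-8226 and MM.1S, human multiple myeloma cell lines, after 6 days with DMSO (the vehicle), with 1 μM GSK126, with 1 μM UNC0638, or with both agents at 1 μM each. GSK126 blocks EZH2, the methyltransferase that writes H3K27 methylation, and UNC0638 blocks G9a (encoded by EHMT2), which writes H3K9 methylation. Each of the 8 groups had 2 samples, each on its own one-colour array, so 16 arrays were compared. No group carried a genetic change made for the study, a single dose and time were used, and an inhibitor acts on an enzyme rather than on its mRNA, so no transcript could check the treatment labels.

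A probe entered the test in a line when the scanner marked it well above background on each array of some group, and all 10 genes met this in both lines. Spots well above background made up 46.5% to 49.7% of an array for RPMI-8226 and 49.9% to 52.8% for MM.1S. A level is given below as the log2 signal of the probe minus the 75th percentile of its array, so that 0 is the 75th percentile and 1 unit is a 2-fold step. On this scale the median of all probes tested with GSK126 + UNC0638 lay 0.13 below DMSO in RPMI-8226 (log2 fold change -0.13) and 0.12 below it in MM.1S (-0.12), and the values below were not moved for it. The 8 plasma cell markers listed were well above background on every array of both lines. The precision is limited by having only 2 arrays in each group. All RPMI-8226 arrays were on 1 slide and all MM.1S arrays on another, so an effect of the slide and one of the line cannot be told apart. Within a slide each treatment had its own column, so an effect of the column and one of the treatment cannot be told apart. In cultures measured in bulk, a change in the share of cells that express a gene and a change in RNA per cell cannot be told apart.

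Interferon-stimulated genes are switched on when type I or type III interferons bind their receptors at the cell surface. The kinases JAK1 and TYK2 then act on transcription factors, which join IRF9 in a complex that binds a short DNA element, the interferon-stimulated response element, in the promoters of these genes. The IFIT proteins bind RNA that carries marks of viral origin and block its translation. ISG15 is a ubiquitin-like protein that is attached to other proteins, ISG20 is an exonuclease that degrades single-stranded RNA, and IFI6 and IFI27 are small hydrophobic proteins of intracellular membranes. IFI44 and IFI44L are neighbouring paralogs whose transcripts are widely used in interferon signatures of blood cells.

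The promoters are shown because the 10 genes were chosen for their place in one pathway, and the element through which that pathway acts can be read in the letters. RefSeq promoter windows (GRCh38.p14, 250 bases before to 50 bases after a transcription start) were at hand for 9 of the 10 genes, with 12 starts, and IFIT2 had no entry. The core searched was GAAANNGAAA on both strands. It was found in 12 of 12 windows of these genes and in 1255 of all 35116 windows (3.57%). The windows of the IFI44 starts overlap and share the same core, as do those of IFI27, so the 12 are not separate sites. Capitals mark the core, which is printed in its reverse complement where it lies on the opposite strand, and each stretch reads 5′ to 3′ on the strand of its gene.
IFIT1, chr10:89392504-89392533, plus strand: tagTTTCACTTTCcccTTTCGGTTTCccta
IFIT3, first start, chr10:89327865-89327894, plus strand: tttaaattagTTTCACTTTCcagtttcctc
IFIT3, second start, chr10:89332468-89332497, plus strand: gttccatcagTTTCACTTTCctttcccctt
IFIT5, chr10:89414513-89414542, plus strand: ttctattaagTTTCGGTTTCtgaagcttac
IFI44, chr1:78649759-78649788, plus strand: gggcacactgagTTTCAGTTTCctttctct
IFI44L, chr1:78620365-78620394, plus strand: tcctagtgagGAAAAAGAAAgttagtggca
IFI6, chr1:27672266-27672295, minus strand: gcagagtgcaGAAATAGAAActccgacagg
IFI27, chr14:94110625-94110654, plus strand: cagTTTCGGTTTCctgGAAAATGAAAccta
ISG15, chr1:1013377-1013406, plus strand: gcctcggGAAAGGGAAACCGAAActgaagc
ISG20, chr15:88638937-88638966, plus strand: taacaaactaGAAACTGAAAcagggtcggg

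IFIT1 held 2 cores on the opposite strand, separated by 3 bases. The pair of cores in ISG15 shared bases, and those of IFI27 faced each other on opposite strands. IFI6 and IFIT5 each held 3 cores in the whole window. A second motif, the gamma-activated sequence TTCNNNGAA, was found in 2 of the 12 windows, both of IFI27, where it overlapped the cores, and in 2689 of all windows (7.66%). Those windows overlap and hold the same stretch, so the same site is counted in both. Of the 22 other listed interferon-stimulated genes with a window, 17 held the GAAANNGAAA core. These matches describe letters and are not evidence that a factor was bound.

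**Figure D1:**
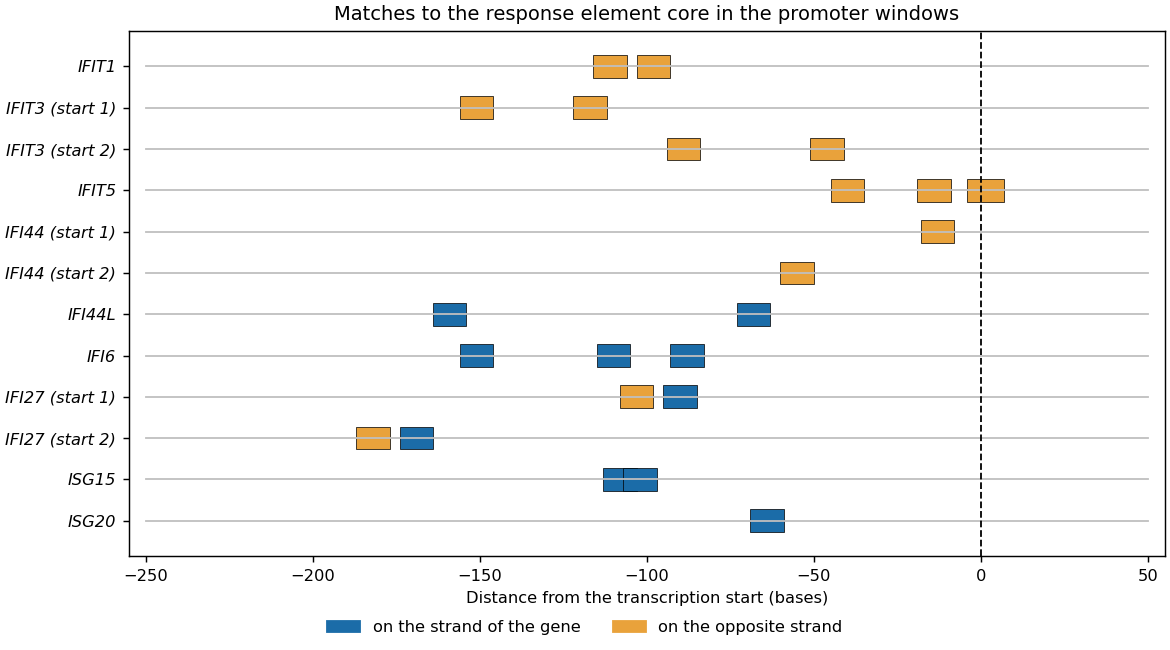
Position of each match to the GAAANNGAAA core in the 12 promoter windows of 9 of the genes. The x axis is the distance in bases from the transcription start (dashed line, windows from 250 before to 50 after it), and bars are coloured by the strand on which the core lies. The matches of every window include at least 1 before the start.

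In RPMI-8226 cells GSK126 + UNC0638 upregulated most of these genes, and the single agents passed the test for 1 or 0 of them. With GSK126 + UNC0638, 7 of the 10 genes were higher than with DMSO (limma, adjusted p under 0.05, Benjamini-Hochberg over all 23199 probes tested), where 7.2% of all probes were higher. The 7 include IFI44L, which entered the RPMI-8226 test only through the GSK126 and combination arrays. With GSK126 alone, 1 gene was higher, IFI44, against 0.547% of all probes, while 7 of 10 had an unadjusted p under 0.05. With UNC0638 alone, 0 of 10 passed against 0.556% of all probes, and 0 of 10 also had an unadjusted p under 0.05. The median log2 fold change of the 10 genes was 1.10 with GSK126, 0.55 with UNC0638 and 2.04 with both, beside -0.05, -0.03 and -0.13 over all probes.

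Several calls in RPMI-8226 rested on few arrays. The count of 7 with the combination fell to 2 without DMSO replicate 1 (IFIT5 and IFI44), to 4 without DMSO replicate 2 and to 3 without either combination array. The call of IFI44 with GSK126 held without GSK126 replicate 2 and was lost on leaving out any other array. The main fits held no term for the replicate number, although same-numbered RPMI-8226 arrays deviated together (r from 0.25 to 0.42). A fit with such a term is called the replicate block here. With it, IFIT3 (adjusted p = 0.0485) and ISG20 (adjusted p = 0.00936) also passed with the combination in limma.

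In MM.1S cells both single agents passed the test for several of the genes. With GSK126, 5 of 10 genes were higher than with DMSO, against 5.19% of all 25102 probes tested (limma). With UNC0638, 7 of 10 were higher, against 12.8% of all probes, and with the combination 8 of 10 were higher, against 22.2%. The 8 include IFIT2, which entered the MM.1S test only through the combination arrays. IFI44L, among the 8 and among the 7 with UNC0638, entered it only through the UNC0638 and combination arrays. The median log2 fold change of the 10 genes was 0.94, 0.97 and 2.13 in the same order, beside -0.05, -0.07 and -0.12 over all probes. The 8 genes called with the combination stayed called on leaving out each of the 8 arrays in turn. The count with GSK126 ranged from 0 (without GSK126 replicate 1) to 3, and it was 1 without DMSO replicate 1 or GSK126 replicate 2. The count with UNC0638 ranged from 4 (without UNC0638 replicate 2) to 7.

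A count that needs no model was also made. Both treated arrays lay above both DMSO arrays for 8 genes with GSK126, 6 with UNC0638 and all 10 with the combination in RPMI-8226, where 14.3%, 17.2% and 22% of all probes did so. In MM.1S these counts were 7, 7 and 8, against 24.6%, 29% and 32.8% of all probes.

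**Figure D2:**
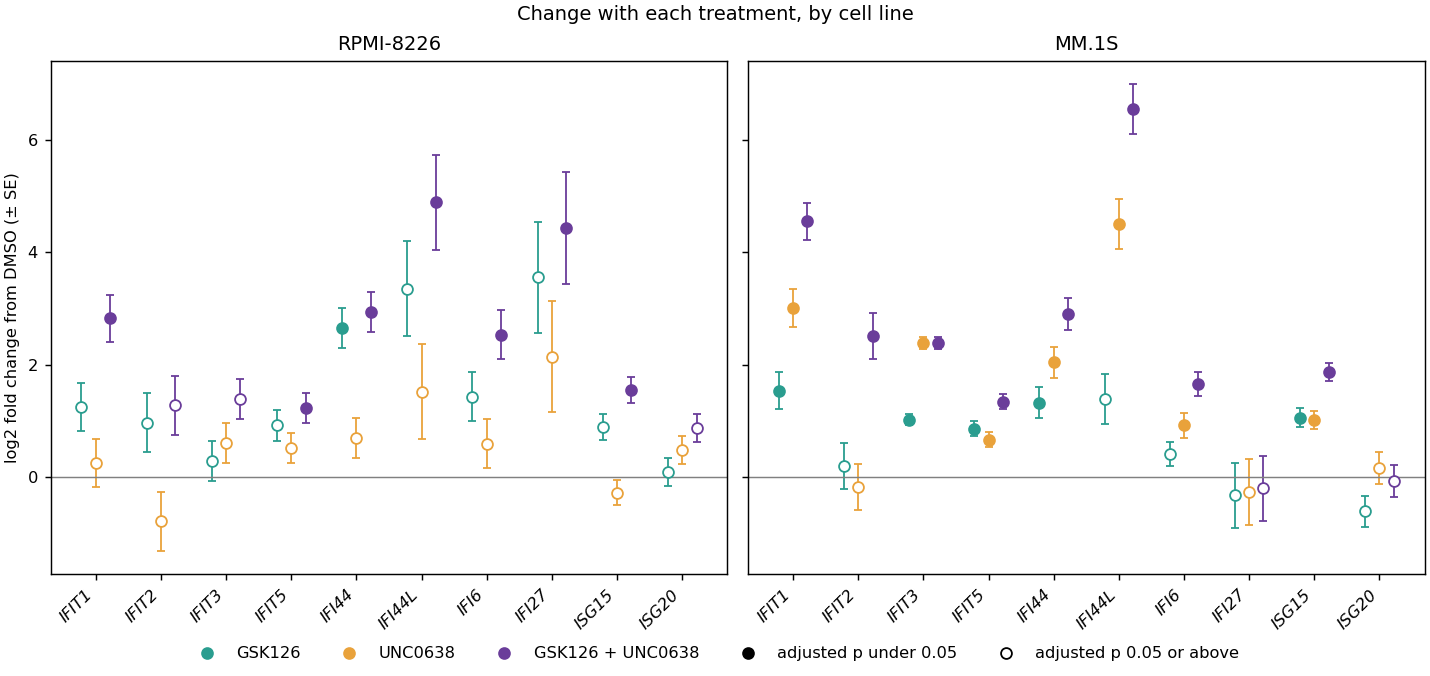
The log2 fold change from DMSO with its standard error (y axis) for each of the 10 genes with GSK126, UNC0638 and GSK126 + UNC0638, RPMI-8226 on the left and MM.1S on the right (2 arrays a group). Filled points have a limma adjusted p under 0.05: 1, 0 and 7 genes in RPMI-8226 and 5, 7 and 8 in MM.1S.

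IFIT1, which binds RNA caps that lack the methylation of host mRNA, was measured by a probe at chr10:91163438-91163497 (GRCh37, plus strand). In RPMI-8226 its levels were -1.85 and -1.23 with DMSO, 0.26 and -0.86 with GSK126, -1.47 and -1.11 with UNC0638, and 0.95 and 1.60 with the combination. In MM.1S they were -4.44 and -3.54 with DMSO, -2.26 and -2.66 with GSK126, -1.14 and -0.83 with UNC0638, and 0.34 and 0.78 with the combination. The combination arrays were the highest in both lines and met no array of another group, whereas the RPMI-8226 UNC0638 arrays overlapped those with DMSO. In MM.1S the 4 groups formed 4 separate steps. With the combination IFIT1 rose 7.06-fold in RPMI-8226 (log2 2.82 ± 0.43 SE, limma adjusted p = 0.0102) and 23.4-fold in MM.1S (4.55 ± 0.33, adjusted p = 0.000303). With UNC0638 alone in MM.1S it rose 8.04-fold (adjusted p = 0.00327), and with GSK126 alone by 1.53 on the log2 scale (adjusted p = 0.0483), the latter call being held without DMSO replicate 2 and lost without any other array. The RPMI-8226 call was lost without DMSO replicate 1.

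IFIT2, which forms complexes with IFIT1 and IFIT3, was close to background on many arrays. Its brighter probe lies at chr10:91068397-91068456 (GRCh37, plus strand), and its other probe, at chr10:91066613-91066672, was not well above background on any array. In RPMI-8226 the levels were -3.97 and -2.94 with DMSO, -2.05 and -2.93 with GSK126, -3.76 and -4.73 with UNC0638, and -2.60 and -1.76 with the combination. The second of the UNC0638 arrays was not well above background, and the combination arrays lay above those with DMSO. In MM.1S the probe was well above background with the combination only, at -3.64 and -3.89, and not on any of the 6 other arrays, which read between -6.93 and -5.76. The change in RPMI-8226 did not pass the test (1.27 ± 0.53, limma adjusted p = 0.156). In MM.1S IFIT2 was at least 2.03-fold higher with the combination than with DMSO (limma adjusted p = 0.00359), a bound set by the lowest signal well above background on each DMSO array or, where higher, its own. The probe entered the MM.1S test only through the combination arrays, so this p is not separate support for the difference. The mean of both probes changed both results: the MM.1S call was lost (1.05, adjusted p = 0.0591), and the RPMI-8226 change passed (1.30, adjusted p = 0.018).

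IFIT3, the partner that stabilises IFIT1, was read at chr10:91099762-91099821 (GRCh37, plus strand). On the RPMI-8226 arrays the levels were -1.45 and -1.81 with DMSO, -0.93 and -1.76 with GSK126, -1.32 and -0.74 with UNC0638, and -0.53 and 0.04 with the combination. On the MM.1S arrays they were -3.44 and -3.31 with DMSO, -2.28 and -2.42 with GSK126, -0.91 and -1.08 with UNC0638, and -1.01 and -0.97 with the combination. The MM.1S arrays with UNC0638 alone and with the combination interleaved, and both groups stood well above GSK126 and DMSO. IFIT3 rose 5.21-fold with the combination in MM.1S (2.38 ± 0.10, limma adjusted p = 9.92e-05) and by the same log2 value, 2.38, with UNC0638 alone (adjusted p = 0.0004). Between those groups the difference was 0.00 on the log2 scale with a 95% interval from -0.25 to 0.25. With GSK126 alone it rose by 1.02 (adjusted p = 0.00728, lost without GSK126 replicate 1). In RPMI-8226 the combination gave 1.38 ± 0.36, which did not pass without the replicate block (adjusted p = 0.0524).

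IFIT5, which binds RNA with uncapped ends, changed least among the family members that were called, and its probe (chr10:91179559-91179618, GRCh37, plus strand) was well above background on every array. RPMI-8226 cells gave levels of -0.26 and -0.90 with DMSO, 0.61 and 0.07 with GSK126, 0.00 and -0.14 with UNC0638, and 0.56 and 0.74 with the combination. MM.1S cells gave 0.30 and 0.50 with DMSO, 1.27 and 1.25 with GSK126, 0.90 and 1.23 with UNC0638, and 1.71 and 1.77 with the combination. All treated arrays lay above the DMSO arrays of their line. The combination raised IFIT5 2.34-fold in RPMI-8226 (1.23 ± 0.27, limma adjusted p = 0.0339), a call that was lost without DMSO replicate 2 or any UNC0638 or combination array, and by 1.34 ± 0.13 in MM.1S (adjusted p = 0.000642). In MM.1S GSK126 raised it by 0.86 (adjusted p = 0.0217) and UNC0638 by 0.66 (adjusted p = 0.0159). The first of these calls was lost without any DMSO, GSK126 or combination array and the second without DMSO replicate 1 or UNC0638 replicate 2.

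**Figure D3:**
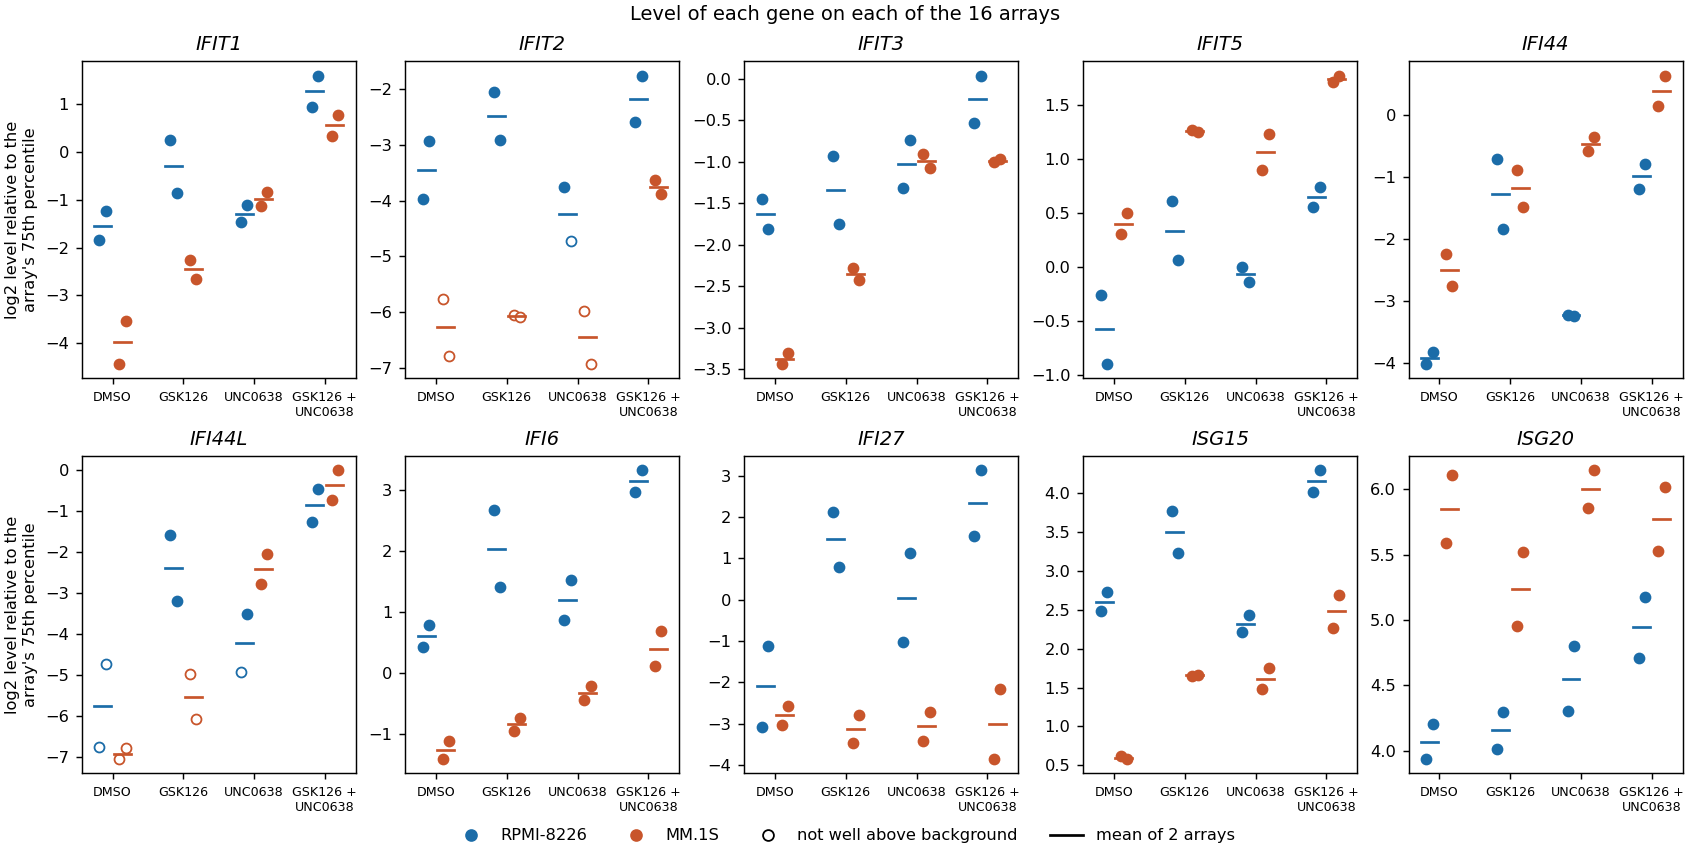
Level of each of the 10 genes on each of the 16 arrays (y axis, log2 relative to the 75th percentile of the array) by treatment (x axis), RPMI-8226 in blue and MM.1S in orange, with the mean of 2 arrays as a bar. Open points were not well above background. IFI27 rose in RPMI-8226 from -3.08 and -1.11 with DMSO to 1.54 and 3.13 with the combination, while its MM.1S arrays lay between -3.84 and -2.15 in all groups.

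IFI44 was the one gene of the 7 called with the combination in RPMI-8226 that stayed called without each of the 8 arrays in turn. Its probe lies at chr1:79128479-79128538 (GRCh37, plus strand). In RPMI-8226 the levels were -4.02 and -3.82 with DMSO, -0.71 and -1.84 with GSK126, -3.23 and -3.24 with UNC0638, and -1.19 and -0.79 with the combination. In MM.1S they were -2.25 and -2.77 with DMSO, -0.89 and -1.48 with GSK126, -0.58 and -0.35 with UNC0638, and 0.15 and 0.64 with the combination. In RPMI-8226 the GSK126 and combination arrays shared one range, far above UNC0638 and DMSO, while in MM.1S UNC0638 lay above GSK126 and the combination above both. IFI44 rose 7.64-fold with the combination in RPMI-8226 (2.93 ± 0.35, limma adjusted p = 0.00469) and 7.48-fold in MM.1S (2.90 ± 0.28, adjusted p = 0.000609). The MM.1S call also held on leaving out each array. GSK126 alone raised it 6.28-fold in RPMI-8226 (2.65 ± 0.35, adjusted p = 0.042) and by 1.32 in MM.1S (adjusted p = 0.0472), and UNC0638 alone raised it by 2.04 there (adjusted p = 0.00589). The MM.1S call with GSK126 was lost on leaving out any 1 of the 8 arrays.

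IFI44L was not well above background with DMSO in either line and was so with the combination in both. Its probe lies at chr1:79107590-79107649 (GRCh37, plus strand). In RPMI-8226 both DMSO arrays (-6.75 and -4.74) and the first UNC0638 array (-4.93, against -3.52 for the second) were not well above background, and the levels were -1.59 and -3.20 with GSK126 and -1.26 and -0.45 with the combination. In MM.1S the DMSO arrays (-7.04 and -6.79) and the GSK126 arrays (-4.98 and -6.08) were not well above background, while UNC0638 gave -2.77 and -2.05 and the combination -0.74 and -0.0028. Of the single agents, GSK126 in RPMI-8226 and UNC0638 in MM.1S were the ones with both arrays well above background. With the combination IFI44L was at least 11.6-fold higher than with DMSO in RPMI-8226 (limma adjusted p = 0.0165) and at least 21.3-fold higher in MM.1S (adjusted p = 0.000265). With UNC0638 alone in MM.1S it was at least 5.18-fold higher (adjusted p = 0.0025). With GSK126 alone in RPMI-8226 the bound was 4.0-fold, and the test was not passed (adjusted p = 0.215). IFI44L entered the RPMI-8226 test only through the GSK126 and combination arrays, and the MM.1S test only through the UNC0638 and combination arrays. These p are thus not separate support for a rise. The RPMI-8226 call with the combination was lost without DMSO replicate 1 or either combination array.

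IFI6, reported to oppose cell death from its place in the membranes of mitochondria and the endoplasmic reticulum, was read at chr1:27992837-27992896 (GRCh37, minus strand). On the RPMI-8226 arrays the levels were 0.43 and 0.79 with DMSO, 2.67 and 1.40 with GSK126, 0.87 and 1.53 with UNC0638, and 2.96 and 3.32 with the combination. On the MM.1S arrays they were -1.40 and -1.10 with DMSO, -0.94 and -0.74 with GSK126, -0.45 and -0.22 with UNC0638, and 0.11 and 0.69 with the combination. The combination arrays were the highest in both lines, and the MM.1S groups did not overlap one another. IFI6 rose 5.79-fold with the combination in RPMI-8226 (2.53 ± 0.43, limma adjusted p = 0.0158), and in MM.1S it rose by 1.65 ± 0.22 (adjusted p = 0.00159). UNC0638 alone raised it by 0.92 in MM.1S (adjusted p = 0.0262), a call lost without any 1 of the 4 arrays compared. The RPMI-8226 call was likewise lost without any 1 of the 4 DMSO or combination arrays.

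IFI27, a mitochondrial membrane protein, was, with ISG20, one of the 2 genes not called with the combination in MM.1S. Its probe lies at chr14:94582967-94583026 (GRCh37, plus strand). RPMI-8226 cells gave levels of -3.08 and -1.11 with DMSO, 2.12 and 0.80 with GSK126, -1.03 and 1.12 with UNC0638, and 1.54 and 3.13 with the combination. MM.1S cells gave -3.02 and -2.56 with DMSO, -3.45 and -2.78 with GSK126, -3.41 and -2.71 with UNC0638, and -3.84 and -2.15 with the combination. In RPMI-8226 every treated array lay above both DMSO arrays, with replicates that differed by more than 1 unit in each group, whereas in MM.1S all 4 groups overlapped. IFI27 rose 21.6-fold with the combination in RPMI-8226 (4.43 ± 0.99, limma adjusted p = 0.0359), a call that was lost without any 1 of the DMSO, GSK126 or combination arrays. In MM.1S the change was -0.20 ± 0.58 (95% interval from -1.62 to 1.21, adjusted p = 0.79).

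ISG15, the ubiquitin-like modifier, was read at chr1:949567-949626 (GRCh37, plus strand). In RPMI-8226 the levels were 2.48 and 2.72 with DMSO, 3.76 and 3.22 with GSK126, 2.21 and 2.43 with UNC0638, and 4.01 and 4.29 with the combination. In MM.1S they were 0.62 and 0.59 with DMSO, 1.65 and 1.67 with GSK126, 1.48 and 1.75 with UNC0638, and 2.26 and 2.69 with the combination. The UNC0638 arrays lay just below those with DMSO in RPMI-8226 (log2 fold change -0.28, which did not pass the test) and about 1 unit above them in MM.1S. ISG15 rose 2.92-fold with the combination in RPMI-8226 (1.55 ± 0.23, limma adjusted p = 0.00896, lost without DMSO replicate 1) and by 1.88 ± 0.16 in MM.1S (adjusted p = 0.000451). In MM.1S it rose by 1.06 with GSK126 (adjusted p = 0.0212, lost without any 1 of the 4 arrays compared) and by 1.01 with UNC0638 (adjusted p = 0.00838, lost without UNC0638 replicate 2).

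ISG20, the exonuclease, lay well above the 75th percentile before treatment and had the smallest changes of the 10 with the combination in both lines. Its probe lies at chr15:89198784-89198843 (GRCh37, plus strand). On the RPMI-8226 arrays the levels were 3.94 and 4.20 with DMSO, 4.01 and 4.30 with GSK126, 4.30 and 4.80 with UNC0638, and 4.71 and 5.18 with the combination. On the MM.1S arrays they were 5.59 and 6.11 with DMSO, 4.95 and 5.52 with GSK126, 5.86 and 6.15 with UNC0638, and 5.53 and 6.02 with the combination. The RPMI-8226 combination arrays lay above those with DMSO, while in MM.1S they overlapped and the GSK126 arrays were the lowest. The change with the combination was 0.88 ± 0.25 in RPMI-8226 (limma adjusted p = 0.0664 without the block) and -0.08 ± 0.28 in MM.1S (95% interval from -0.77 to 0.61, adjusted p = 0.834).

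The combination was next set against each single agent, to ask whether both inhibitors together gave more than either one. In MM.1S it exceeded GSK126 for 8 of 10 genes, against 15.1% of all probes, and exceeded UNC0638 for 5, against 6.03% (limma). Those 5 were IFIT1 (1.54 on the log2 scale, adjusted p = 0.0372), IFIT2 (at least 2.05-fold, adjusted p = 0.0191), IFIT5 (0.68, adjusted p = 0.0314), IFI44L (2.04, adjusted p = 0.0387) and ISG15 (0.86, adjusted p = 0.0288). IFIT2, also among the 8 against GSK126, entered the MM.1S test only through the combination arrays, so its calls are not separate support. IFI44L entered it only through the UNC0638 and combination arrays, so its call against GSK126 is not separate support either. The 5 were not stable: leaving out an array left 0 of them without either UNC0638 array or combination replicate 2, 1 (ISG15) without combination replicate 1 and 2 without any 1 of the 4 DMSO or GSK126 arrays. With the mean of both its probes IFIT2 was not called against UNC0638 (adjusted p = 0.0915) or against GSK126 (adjusted p = 0.0533) in MM.1S. In RPMI-8226 the combination exceeded UNC0638 for 3 genes, against 2.69% of all probes: IFIT1 (2.57, adjusted p = 0.0294), IFI44 (2.25, adjusted p = 0.0252) and ISG15 (1.83, adjusted p = 0.0109). Without either UNC0638 array this count was 0, and without a DMSO or combination array it was 1. It exceeded GSK126 for 0 genes, against 2.01% of all probes, with 5 of 10 at an unadjusted p under 0.05 in limma. With the replicate block ISG20 passed there (adjusted p = 0.0292).

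Whether the combination departed from the sum of both single changes on the log2 scale was tested as an interaction. None of the 10 genes passed in either line, where 0.159% of all probes passed upward in RPMI-8226 and 0% in MM.1S (limma). At an unadjusted p under 0.05 there was 1 gene in RPMI-8226, ISG15 (0.94, 95% interval from 0.175 to 1.70). In MM.1S there were 2 of opposite sign, IFIT2 (2.49, adjusted p = 0.367), whose single-agent arrays were not well above background, and IFIT3 (-1.02 ± 0.14, adjusted p = 0.266). The intervals were wide, with IFI44L in RPMI-8226 running from -2.84 to 2.88. That value includes both RPMI-8226 DMSO arrays and an UNC0638 array that were not well above background, so it is not an exact measured departure. In MM.1S the IFI44L arrays with DMSO and with GSK126 were not well above background either.

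GSK126 and UNC0638 were also compared directly at their common dose. In MM.1S 3 genes were lower with GSK126 than with UNC0638, against 6.02% of all probes: IFIT1 (-1.47, limma adjusted p = 0.0404), IFIT3 (-1.36, adjusted p = 0.00193) and IFI44L (at least 5.43-fold, adjusted p = 0.0121). IFI44L entered the MM.1S test only through the UNC0638 and combination arrays, so its p is not separate support. The IFIT3 call held on leaving out each array, and the count fell to 1 without UNC0638 replicate 2. In RPMI-8226 the values pointed the other way for most genes, with 8 of 10 above 0. The smallest adjusted p were those of IFI44 (1.96, adjusted p = 0.0624) and ISG15 (1.17, adjusted p = 0.0742). None passed, against 0.819% of all probes higher, and 3 had an unadjusted p under 0.05 (IFIT2, IFI44 and ISG15). With the replicate block IFI44 passed (limma adjusted p = 0.0482).

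**Figure D4:**
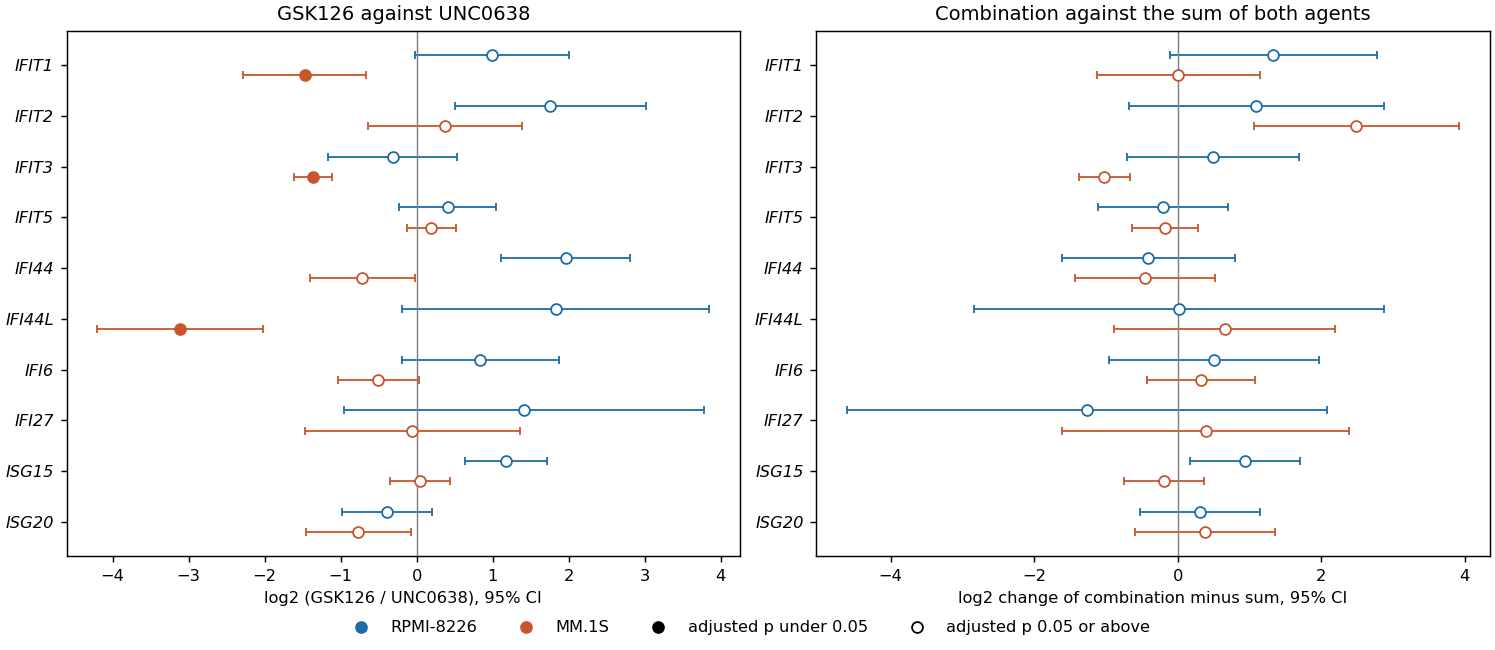
Left, log2 difference between GSK126 and UNC0638 (x axis) for each gene. Right, log2 change with the combination minus the sum of the changes with each agent. Points are estimates with 95% intervals for RPMI-8226 (blue) and MM.1S (orange), filled where the limma adjusted p was under 0.05 (IFIT1, IFIT3 and IFI44L on the left, in MM.1S). In RPMI-8226, 8 of 10 values on the left lie above 0, and in MM.1S 3 of 10, of which IFIT2 was not well above background in either group.

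The lines themselves were then compared in 1 fit over all 16 arrays, as the difference between their changes (RPMI-8226 minus MM.1S). With UNC0638 the change was smaller in RPMI-8226 for 3 genes, against 1.79% of all 26931 probes: IFIT1 (-2.76 ± 0.60, limma adjusted p = 0.0387), IFIT3 (-1.78 ± 0.41, adjusted p = 0.0478) and ISG15 (-1.30 ± 0.29, adjusted p = 0.0462). With the combination it was larger for IFI27 (4.63 ± 1.29, adjusted p = 0.0409), 1 of 10 genes against 7.28% of all probes. With GSK126 none passed, against 0.356% of all probes higher, and 2 had an unadjusted p under 0.05 (IFI44, 1.33, and IFI27, 3.88). These calls lay close to the threshold. With the replicate block the call of IFIT3 with UNC0638 was lost (adjusted p = 0.0597). Leaving out 1 of the 16 arrays ended the call of IFIT1 in 10 cases, of IFIT3 and ISG15 in 12 each and of IFI27 in 9.

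The difference between the agents was set against the line as well, a comparison chosen after the values had been seen. The change from UNC0638 to GSK126 was more positive in RPMI-8226 than in MM.1S for all 10 genes, with a median difference of 1.36 beside -0.03 over all probes. It passed for IFI44 (2.68 ± 0.50, limma adjusted p = 0.0203) and IFI44L (4.95 ± 1.08, adjusted p = 0.0376), 2 genes against 1.84% of all probes. The IFI44L value includes both MM.1S GSK126 arrays and the first RPMI-8226 UNC0638 array, none of them well above background, so it is not an exact measured difference. The probe entered the test only through groups where it was high, so its p is not separate support. Leaving out an array gave counts between 0 and 5, with 0 without RPMI-8226 UNC0638 replicate 1, MM.1S GSK126 replicate 2 or either MM.1S UNC0638 array, and 5 without RPMI-8226 GSK126 replicate 2.

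The rest of the pathway was read from lists of genes. Among the ligands, 13 of the 15 listed were on the array. Of these, 12 in RPMI-8226 and 11 in MM.1S were well above background on no array. Among them were IFNB1 and the 6 listed IFNA genes found on the array. IFNA genes outside the list were not looked up. IL28A, a type III interferon, was well above background on all MM.1S arrays. IL29, another, was so there with UNC0638 only, at a mean level of -4.27 against -6.01 with DMSO (limma adjusted p = 0.0108). IL29 entered the MM.1S test only through the UNC0638 arrays, so this p is not separate support for a rise. Its level lay close to the lowest signal well above background on those arrays (-4.73 and -4.86). As IFNB1 and those 6 IFNA genes were dim throughout, none of their values could be set beside the effectors.

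Of the receptors, kinases and transcription factors of the type I response, 4 of 11 tested were higher with the combination in RPMI-8226 and 5 of 10 in MM.1S, with 1 lower there (limma). Over all probes tested, 7.2% were higher and 5.17% lower in RPMI-8226, and 22.2% were higher and 31.7% lower in MM.1S. The counts with the combination for all lists below stand beside these shares. IRF9, the DNA-binding subunit of the complex named above, rose by 1.54 in RPMI-8226 (adjusted p = 0.00398) and by 1.48 in MM.1S (adjusted p = 0.000215). IFNAR2, a receptor chain, fell by 0.92 in MM.1S (adjusted p = 0.00113). The list medians were 0.73 and 0.40, beside -0.12 and -0.13 over all genes.

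Of the enzymes that attach and remove ISG15, 1 of 5 tested was higher with the combination in RPMI-8226, against 7.2% of all probes. It was USP18, the protease that removes ISG15, which was not well above background with DMSO (limma adjusted p = 0.0123). USP18 entered the RPMI-8226 test only through the combination arrays, so this p is not separate support for a rise. In MM.1S 3 of 7 were higher and 1 lower, against 22.2% and 31.7% of all probes: UBA7, the activating enzyme of ISG15, rose by 2.47 (adjusted p = 9.92e-05), USP18 by 2.09 (adjusted p = 0.000144) and HERC6 passed from a DMSO level not above background (adjusted p = 0.0028). HERC6 entered the MM.1S test only through treated arrays, so its p is not separate support for a rise. HERC5, the main human ISG15 ligase, fell by 0.59 in MM.1S (adjusted p = 0.00753) and gave 0.07 in RPMI-8226. The difference between the lines passed for 0 of the 7 with the combination (limma, 16 arrays).

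Among 30 other interferon-stimulated genes, 9 of 26 tested were higher and 1 lower with the combination in RPMI-8226, with a median of 1.00, and 24 of 30 were higher and 1 lower in MM.1S, with a median of 1.51. With single agents the counts higher were 2 with GSK126 and 0 with UNC0638 in RPMI-8226, against 0.547% and 0.556% of all probes. In MM.1S they were 14 and 22, against 5.19% and 12.8% of all probes. MX1, an antiviral GTPase, rose by 2.67 (limma adjusted p = 0.015) and 3.20 (adjusted p = 0.000103) with the combination. By contrast IFITM1 fell by 1.02 in RPMI-8226 (adjusted p = 0.0389) and rose by 2.12 in MM.1S (adjusted p = 0.000639). Of 4 family relatives of the effectors tested, 0 were called in RPMI-8226 and 2 were lower in MM.1S, where 31.7% of all probes were: ISG20L2 (-0.98, adjusted p = 0.000729) and IFI27L1 (-0.31, adjusted p = 0.0156).

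Markers of cell identity were read beside these values. The 8 plasma cell markers had a median of -0.79 with the combination in RPMI-8226, with 3 lower (IRF4, SDC1 and TNFRSF17) and 1 higher (SLAMF7), and all 8 were lower in MM.1S, with a median of -0.65 (limma). Their summed linear level, relative to the 75th percentile, went from 255 to 295 with DMSO to 162 to 208 with the combination in RPMI-8226, and from 533 to 543 down to 360 to 361 in MM.1S. Of 12 markers of other cell types on the array, 5 of 9 tested were higher with the combination in RPMI-8226 (CD3D, CD3E, CD2, CD14 and COL1A2) and 2 of 7 in MM.1S (CD3E and CD2), while 1 was lower in RPMI-8226 and 2 in MM.1S, EPCAM in both lines. The median log2 fold change of those tested was 2.61 in RPMI-8226 and 0.13 in MM.1S. The summed linear level of the 12, in which the brightest genes weigh most, was lower with the combination. It was 39.8 to 47.9 with DMSO and 29.2 to 34.5 with the combination in RPMI-8226, and 5.16 to 5.53 and 4.38 to 4.71 in MM.1S. KLRD1 was well above background on no array, KRT19 on none of RPMI-8226, and COL1A1, COL1A2 and CSF1R on none of MM.1S. The part of these markers in the values of the effectors was not tested.

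**Figure D5:**
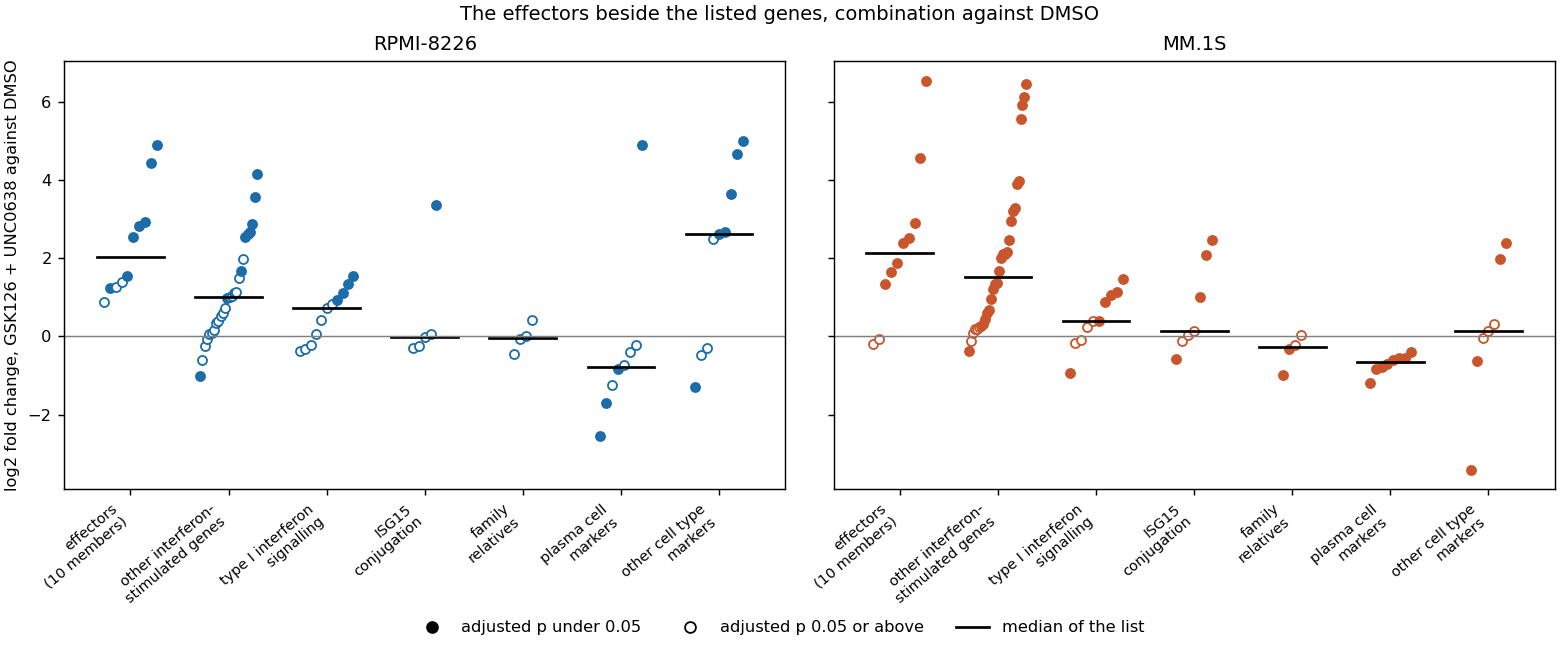
The log2 fold change with GSK126 + UNC0638 against DMSO (y axis) of the 10 effectors and of the genes tested in 6 lists (x axis), RPMI-8226 left and MM.1S right. Filled points have a limma adjusted p under 0.05 and bars are list medians, which are 2.04 and 2.13 for the effectors and 1.00 and 1.51 for the other interferon-stimulated genes. Probes not well above background with DMSO are included, so their values are not bounds.

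At the 6 loci of the effectors the nearest gene with a usable probe on each side gave 12 neighbours, which lay from 11.1 to 3324 kb away. With the combination 0 of 12 were called in RPMI-8226 (limma). In MM.1S 4 of 10 tested were higher and 2 lower, against 22.2% of all probes higher and 31.7% lower. Among the 4 was LPHN2 (1.23, adjusted p = 0.00103), the neighbour at 3324 kb from IFI44. Beside the IFIT cluster on chromosome 10, LIPA (93.2 kb away) was 0.59 higher (adjusted p = 0.00238) and SLC16A12 (11.3 kb away) was lower by a log2 value of -0.38 (adjusted p = 0.0141) in MM.1S. Beside IFI27, the related IFI27L1 gave -0.31 in MM.1S and IFI27L2 -0.21, and neither was called in RPMI-8226, where IFI27 itself gave 4.43.

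The genes whose pattern was most like the mean of the 10 were sought among 16207 genes measured in both lines, by Pearson's r over the 16 arrays after the mean of its line's DMSO arrays was taken from each. Among the 5 with the highest r, the 10 themselves left out, were MX1 (r = 0.97), MX2 (0.97), IRF9 (0.96) and MYL12B (0.96). The arrays share treatments and lines, so these values describe likeness and have no p. MYL12B, a myosin light chain that was in none of the lists, gave 0.49 in RPMI-8226 (limma adjusted p = 0.0568) and 0.53 in MM.1S (adjusted p = 0.0031) with the combination.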

How the data were processed

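RNA of 16 samples was hybridised by the authors, after one-colour labelling, to Agilent SurePrint G3 human arrays. The deposited scanner files hold intensity values per spot (62976 spots, 4259 of them controls), written by Agilent Feature Extraction 10.7 per the file headers, with background subtracted. The deposited table of the whole series holds the authors' values of the same arrays as intensity, and it equalled the processed signals after rounding to 3 digits in 99.9958% of values. The study names its replicates biological, but the labels do not name separate cultures, so p-values measure only the spread between these samples.

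Control spots and outlier flags were left out, spots of a probe were averaged, log2 of the processed signal was taken and the 75th percentile of each array was subtracted. A probe was kept for a line if the scanner marked it well above background on each array of some group. Each line was fitted over its 8 arrays with limma 3.58.1 (R 4.3.3), and p-values were adjusted by Benjamini-Hochberg over all probes kept, with a threshold of 0.05. A fit over 16 arrays tested differences between lines. The code was tested on simulated data. For a probe too dim on each array of a group, a fold is given as a bound, against the higher of its own signal and the lowest signal that the array had well above background.

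The genes named were the 10 members, each by its probe with the highest mean level; listed genes by counts, with values where they were called in both lines or describe the list; the 5 genes most alike; and the nearest gene on each side of each locus. The values of 2 genes are not reported here. ISG20L2, IFITM1, HERC6 and the marker genes were named after their values were seen. Members and lists were chosen with earlier results of these data known. Each treatment had its own column of the slide and each replicate number its own row. Treatment and column, and replicate number and row, thus cannot be told apart. Same-numbered samples deviated together, with r from 0.25 to 0.42 over the 6 pairs of groups in RPMI-8226. In MM.1S r was lower, from 0.085 to 0.22 over the 6 pairs. The main fits ignored this pairing in both lines, and the replicate block was run as an alternative. Alternatives were quantile normalization, normexp (offset 50), the 75th percentile over probes detected on all arrays, no filter, a stricter filter, the replicate block, an intensity-dependent prior, 1 fit over 16 arrays, only the groups compared, the mean over probes, the deposited table, and each array left out.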

Additional observations from a re-analysis of the deposited data

Results flagged for a closer look

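The 6 results here are listed because the change differed between RPMI-8226 and MM.1S by a test of that difference (limma, 16 arrays). With UNC0638 the log2 change in RPMI-8226 minus that in MM.1S was -2.76 for IFIT1 (adjusted p = 0.0387), -1.78 for IFIT3 (adjusted p = 0.0478, and 0.0597 with the replicate block) and -1.30 for ISG15 (adjusted p = 0.0462). With the combination it was 4.63 for IFI27 (adjusted p = 0.0409), where 7.28% of all probes were called higher. For GSK126 against UNC0638, a comparison chosen after the values had been seen, it was 2.68 for IFI44 (adjusted p = 0.0203) and 4.95 for IFI44L (adjusted p = 0.0376). The IFI44L value includes both MM.1S GSK126 arrays and 1 RPMI-8226 UNC0638 array that were not well above background, so it is not an exact measured difference. Its probe entered the test only through groups where it was high, so its p is not separate support. The shares of all probes called in the same direction were 1.79% with UNC0638 and 1.84% for the agents compared. Beside 7.28% of all probes, 1 call with the combination does not set these genes apart. The IFI27 call was lost on leaving out 1 of the 16 arrays in 9 cases, and with no filter. Each of the 6 calls was lost with only the groups compared and on leaving out some of the arrays. A shift common to all arrays of a slide cancels in these 6 results. A treatment or column effect that differs by slide and one that differs by line cannot be told apart. Groups of 2 allow no test for an array that stands apart.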

How the results depend on the processing

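Of 180 results for single genes, 53 were called, and over 3644 alternative values 3341 kept their side of the threshold, 241 lost a call and 62 gained one; no called value changed sign, and 74 uncalled values did. For GSK126 against DMSO in RPMI-8226 the count of 1 became 0 with quantile normalization, normexp, no filter or only the groups compared, and 3 in 1 fit over 16 arrays. In MM.1S the count of 5 became 3 with quantile normalization, 1 with no filter, 1 in the fit over 16 arrays and 2 with only the groups compared. For the combination against GSK126 in RPMI-8226 the count of 0 became 1 with normexp, 1 with the replicate block and 2 in the fit over 16 arrays. Against UNC0638 the count of 3 became 5 with normexp, 1 with no filter, 5 with the intensity-dependent prior and 6 in the fit over 16 arrays, and in MM.1S the count of 5 became 0 with no filter or only the groups compared, 3 with the stricter filter and 2 in the fit over 16 arrays. For GSK126 against UNC0638 in RPMI-8226 the count of 0 became 1 with normexp, the stricter filter or the replicate block and 2 with the prior or the fit over 16 arrays, and in MM.1S the count of 3 became 5 with the replicate block. Between the lines the 3 genes with UNC0638 became 0 with no filter or only the groups compared, and the 1 with the combination became 0 under the same settings, 2 with the replicate block and 2 with the prior. The added comparison of the agents between lines went from 2 to 1 with quantile normalization, 4 with normexp, 1 with no filter, 4 with the prior and 0 with only the groups compared. With the combination in RPMI-8226, IFIT5 and IFI27 were not called with no filter (adjusted p = 0.0812 and 0.0779), nor IFIT5 with only the groups compared (0.0723). With UNC0638 in MM.1S, IFIT5 and IFI6 were not called with no filter (0.0539 and 0.0780) or in the fit over 16 arrays (0.0682 and 0.121), nor IFIT5 with only the groups compared (0.0574). The causes were not tested.

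Leaving out 1 array gave 0 to 1 genes with GSK126 and 2 to 7 with the combination in RPMI-8226, 0 to 4 against UNC0638 and 0 to 1 for GSK126 against UNC0638. In MM.1S it gave 0 to 3 with GSK126, 4 to 7 with UNC0638, 8 to 8 with the combination, 6 to 8 and 0 to 2 for the combination against GSK126 and UNC0638, and 1 to 3 for GSK126 against UNC0638. Between the lines it gave 0 to 3 with UNC0638, 0 to 1 with the combination and 0 to 5 for the comparison of the agents. All other comparisons stayed at 0. In MM.1S same-numbered samples deviated together less than in RPMI-8226 (r from 0.085 to 0.22). With the replicate block in MM.1S, the count for the combination against GSK126 was 9 and against UNC0638 6. For GSK126 against DMSO there, IFI44 lost its call (adjusted p = 0.0606) and ISG20 passed as lower (-0.61, adjusted p = 0.0278); between the lines with the combination, ISG20 passed (0.95, adjusted p = 0.00491). Under the scalings tried the median of all probes with the combination was -0.11 in both lines (quantile) or 0.02 and 0.04 (percentile over probes detected on all arrays). Signals near background limit what can be said of IFIT2 and IFI44L.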
